A study of Mus musculus with 12 samples.

Results

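In mouse leukemia cells carrying MLL-AF9, 39 of the 35976 genes in the count table stood at least 8 times above each of 3 other groups of bone marrow cells, and they are described here together. A gene entered the set when its mean in MLL-AF9 cells was at least 3 CPM (a gene's count divided by the library total and scaled to 1000000 counts) and at least 8 times the mean of every other group. Hox genes and 9 named symbols were left out of the set by its definition, and 7 of those symbols met both thresholds (Stra6, Eya1, Six4 and the Y-linked Ddx3y, Eif2s3y, Kdm5d and Uty), so 46 genes met them in all. The members were thus chosen by their measured mean levels in MLL-AF9 cells against the other groups, and these levels are given as a description, with no test.

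The 12 libraries were made from polyadenylated RNA of CD45.2-positive cells sorted from C57BL/6 bone marrow, with 3 libraries in each of 4 groups. Every sample carried the CD45.2 form of CD45. Cells of the group called WT carried no fusion by their labels, those of BN1 carried BRD9-NUTM1, those of MA9 carried MLL-AF9 and those of ME carried MLL-ENL. BN1, MA9 and ME are murine leukemic cells by the study's design. The labels do not state age, sex, the way each fusion was introduced, or whether replicate libraries stem from different mice. The p-values below therefore reflect only the variation among libraries, which could be technical. In bulk RNA, fewer cells that express a gene and less RNA of it per cell cannot be told apart.

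MLL, encoded by Kmt2a, is a histone methyltransferase that keeps developmental genes active. In the fusions its amino-terminal part, which binds chromatin, is joined to a partner such as AF9 (Mllt3) or ENL (Mllt1), related proteins that recruit factors promoting transcription elongation. The fusions are known for sustaining Hoxa and Meis1 expression in myeloid leukemia, and AF9 and ENL fusions share much of their known machinery. BRD9-NUTM1 joins a bromodomain subunit of a chromatin remodelling complex to a protein of the male germ line.

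The promoters of 4 members are shown because these genes cover the range of the set: Ppp1r14c had no count outside MA9, Prkcz and C2cd4a are members whose windows hold several searched motifs, and Des lies beside another member. Each window runs from 250 bases before to 50 bases after a transcription start in RefSeq's GRCm38.p6 annotation and is written 5′ to 3′ along the gene, with capitals marking matches to the searched motifs. The Ppp1r14c window is chr10:3365900-3366199 on the plus strand and lies around a start inside the annotated gene span. The Prkcz window is chr4:155361379-155361678 on the minus strand, C2cd4a is chr9:67832281-67832580 on the minus strand and Des is chr1:75360042-75360341 on the plus strand.
Ppp1r14c: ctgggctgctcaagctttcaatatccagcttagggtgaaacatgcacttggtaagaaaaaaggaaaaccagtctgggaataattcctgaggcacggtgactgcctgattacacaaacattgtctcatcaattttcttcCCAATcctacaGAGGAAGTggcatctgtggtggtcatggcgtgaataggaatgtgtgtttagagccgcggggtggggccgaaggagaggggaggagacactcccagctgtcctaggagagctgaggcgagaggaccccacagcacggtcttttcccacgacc
Prkcz: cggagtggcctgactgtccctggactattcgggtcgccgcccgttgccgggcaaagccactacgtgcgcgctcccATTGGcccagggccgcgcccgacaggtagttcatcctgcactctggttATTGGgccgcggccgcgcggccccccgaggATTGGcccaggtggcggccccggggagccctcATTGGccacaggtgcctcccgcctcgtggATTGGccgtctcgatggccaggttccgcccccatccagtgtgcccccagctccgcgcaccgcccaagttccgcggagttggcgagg
C2cd4a: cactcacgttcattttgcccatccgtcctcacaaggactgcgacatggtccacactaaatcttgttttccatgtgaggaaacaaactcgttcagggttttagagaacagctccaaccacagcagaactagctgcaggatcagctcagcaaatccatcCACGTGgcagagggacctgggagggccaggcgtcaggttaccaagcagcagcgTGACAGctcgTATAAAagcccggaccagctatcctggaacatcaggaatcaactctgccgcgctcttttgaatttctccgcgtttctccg
Des: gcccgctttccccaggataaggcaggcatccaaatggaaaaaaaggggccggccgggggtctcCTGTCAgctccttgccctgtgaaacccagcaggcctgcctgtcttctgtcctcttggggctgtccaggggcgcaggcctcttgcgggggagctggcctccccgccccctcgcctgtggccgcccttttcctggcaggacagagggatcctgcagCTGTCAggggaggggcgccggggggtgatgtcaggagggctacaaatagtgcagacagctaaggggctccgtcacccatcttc
Positions are given from the transcription start, negative before it, and mark the leftmost base of a match. The Ppp1r14c window holds CCAAT at -112 and GAGGAAGT (a PU.1 motif) at -101. In Prkcz the capitals are 5 copies of CCAAT read on the opposite strand, a number reached or passed by 0.285% of the 27018 promoters in the table. The Prkcz window was picked for its motifs, so nothing is read from that share. C2cd4a holds CACGTG (an E-box) at -93, TGACAG at -40 and TATAAA at -30. Des holds TGACAG, a motif of the Meis homeobox proteins, on the opposite strand at -187 and -33, and 2.324% of all promoters have 2 or more matches.

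Library totals ran from 18292636 to 25732049 counts, and no pair of libraries in a group agreed within sampling noise. ME replicate 3 stood apart, with a mean chi-square per gene of 32.31 and 35.22 from the other ME libraries, against 2.005 to 7.513 for every other pair within a group. Ptprc, the gene of CD45 by which the cells were sorted, had a mean of 400.4 CPM in MA9. The MA9 libraries differed from the other 9 in sex-linked transcripts. The summed level of 4 Y-linked genes was 155.9 to 172.8 CPM in MA9 and 0 to 0.6426 CPM elsewhere, and Xist was at 339.3 to 391.4 CPM in MA9 and 699.6 to 997.4 CPM elsewhere. Both kinds of transcript were thus present in all 3 MA9 libraries, and their part in the levels below was not tested. Erythroid and lymphoid markers were far below WT in MA9, but some stood above the other leukemias. The 17 erythroid markers summed to 32.74 to 39.19 CPM in MA9, 32750 to 41810 in WT, 22.24 to 24.38 in BN1 and 6.888 to 7.217 in ME, and 4 of them had no count in MA9. The 13 B cell markers summed to 22.88 to 23.69 CPM in MA9, 1453 to 1623 in WT, 8.362 to 9.16 in BN1 and 3.213 to 3.596 in ME, also with 4 at 0 in MA9. The 10 natural killer cell markers summed to 1.055 to 1.628 CPM in MA9, above the other leukemias at 0.1383 to 0.7415, and the 12 T cell markers to 3.301 to 4.115 CPM, below ME at 4.319 to 5.833. The 16 stromal and endothelial markers summed to 166 to 173.7 CPM in MA9, above WT at 91.29 to 94.03, BN1 at 91.75 to 95.11 and ME at 48.16 to 49.73 CPM, with 13 of the 16 under 1 CPM and 2 without counts in MA9. Of these 16, only Cxcl12, Pdgfrb and Pecam1 were at 3 CPM or more in MA9. In BN1 and ME only Pecam1 was, and in WT Col1a1, Cdh5, Pecam1 and Alpl were. The part of the cell types named here in the members' levels was not tested.

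The members together made up 592 to 607.6 CPM in the MA9 libraries. Their summed level was 16.54 to 18.57 CPM in WT, 10.7 to 12.16 in BN1 and 14.92 to 20.02 in ME. The first 5 members by level took 42.98% of the MA9 sum, so the set is uneven, with 19 genes at 10 CPM or more and 20 below. For all 39 the lowest MA9 library was above the highest of the 9 other libraries, which also held for 13.4% of the 15334 genes tested. The choice of members used this contrast and nothing is read from the count. In the other groups most members were near silence, 32 of 39 standing under 1 CPM in all 3. No count was seen for 7 members in WT, 9 in BN1 and 5 in ME. The ratio of the MA9 mean to the highest other mean had a median of 27.81, leaving Ppp1r14c aside. It was highest for Gata4, where it rests on 1 count in ME replicate 1, a ratio of 290.7 with a counting interval of 51.77 to 11520. Per kilobase of exon the members ran from 0.3179 CPM for Adarb2 to 55.47 CPM for the noncoding RNA 1700080G11Rik. The set holds 33 protein-coding genes and 6 long noncoding RNAs.

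**Figure D1:**
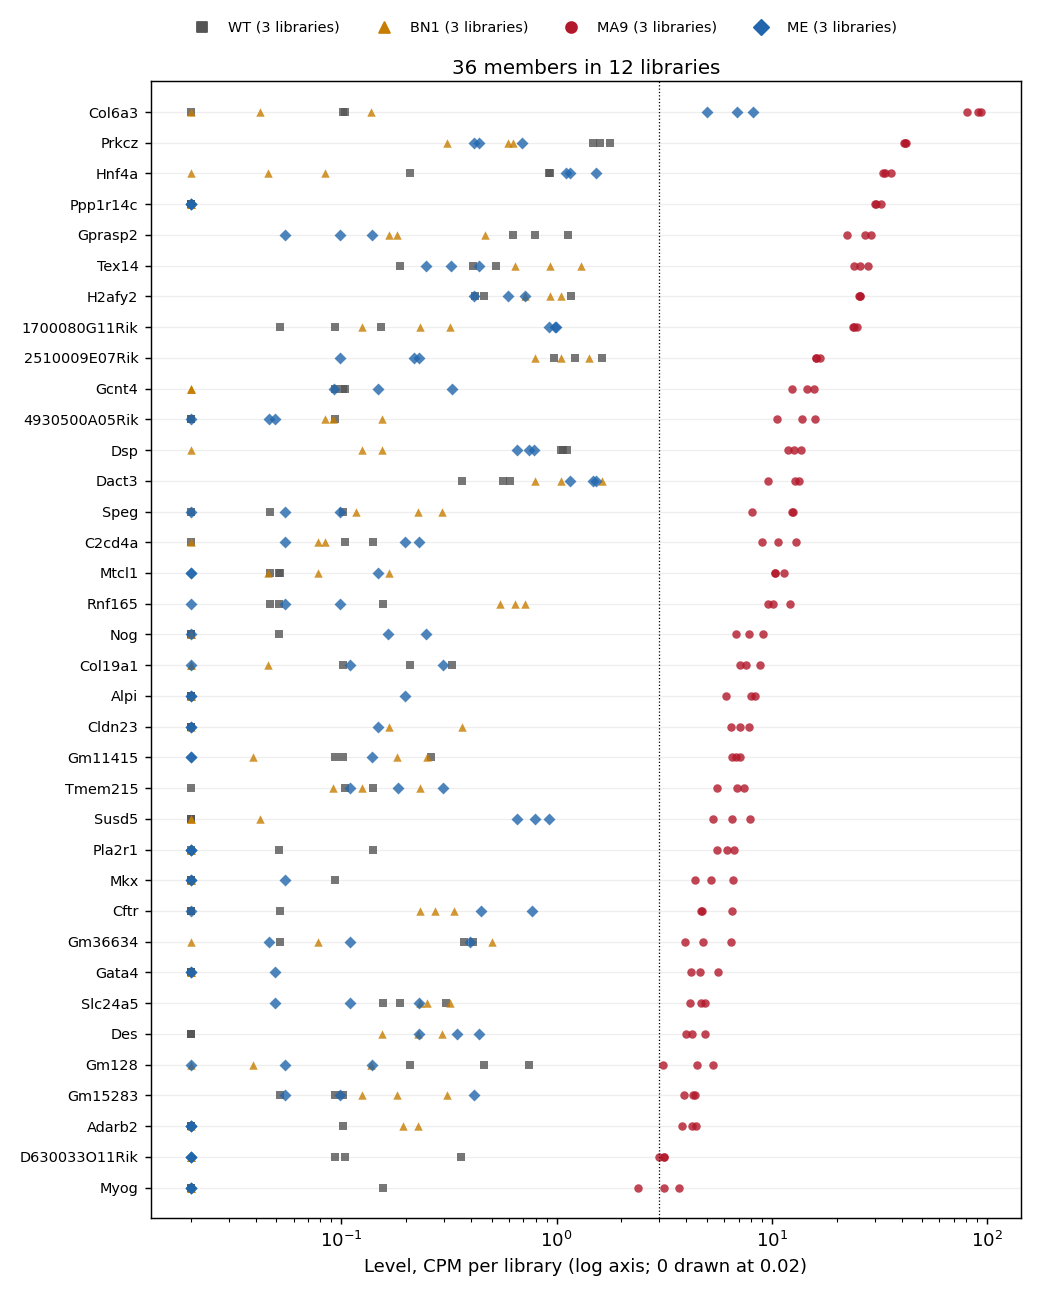
Level of 36 of the 39 members in each of the 12 libraries, in CPM on a log axis with 0 drawn at 0.02 CPM, with members ordered by their mean in MA9. The 3 MA9 libraries are high for every member, which the choice of members fixes, while WT, BN1 and ME keep low and different levels, such as Col6a3 in ME and Prkcz in WT.

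Genes of cell junctions and polarity were among the members. Prkcz encodes an atypical protein kinase C of cell polarity complexes. The MA9 libraries were at 41.94, 40.97 and 41.28 CPM, against 1.586, 1.774 and 1.483 in WT, 0.6272, 0.5925 and 0.3109 in BN1 and 0.692, 0.4149 and 0.4373 in ME, so that BN1 and ME overlapped below WT. Dsp encodes desmoplakin, which anchors desmosomes to intermediate filaments. It was at 12.61, 13.61 and 11.82 CPM in MA9, 1.12, 1.043 and 1.074 in WT, 0.1254, 0 and 0.1554 in BN1 and 0.7415, 0.7836 and 0.656 in ME. Cldn23, a claudin, was at 6.49, 7.824 and 7.084 CPM in MA9, with 0 counts in all WT libraries, 12 counts over BN1 and 3 over ME.

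Other genes of epithelia were mixed in MA9. Of 29 genes of epithelial junctions and keratins, chosen after levels had been seen, 7 were at 3 CPM or more in MA9 and 11 had no count there. The 7 were Jup, Tjp3, Pkp3, Llgl2, Pard6a, Krt18 and Evpl, and the same 29 genes summed to 127.5 to 140.9 CPM in MA9, 111.9 to 116.3 in WT, 63.53 to 71.08 in BN1 and 89 to 100.1 in ME. Jup, which encodes the junction protein plakoglobin, was at 67.16 ± 2.651 CPM in MA9 and 30.93 ± 1.592 CPM in ME (SD, n = 3 each). Others lay the other way, such as the desmosomal Pkp3, at 8.841 CPM in MA9 and 11.14 to 14.45 CPM in the other group means, and the claudin Cldn1, at 1.85 CPM in MA9 and 20.71 CPM in WT.

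Regulators and products of liver and gut formed another group. Hnf4a encodes a nuclear receptor that controls liver and intestinal genes and stood at 35.72, 32.79 and 33.38 CPM in MA9, 0.9331, 0.2087 and 0.9203 in WT, 0.08362, 0.04557 and 0 in BN1 and 1.532, 1.106 and 1.148 in ME. ME lay above WT and WT above BN1, without overlap. Gata4, a transcription factor of heart and endoderm, was at 4.221, 4.658 and 5.606 CPM in MA9 and had 1 count in ME and none in WT or BN1. Alpi, the intestinal alkaline phosphatase, was at 7.967, 8.321 and 6.116 CPM in MA9, with 4 counts in ME and none in WT and BN1. Cftr, the chloride channel of epithelial secretion, was at 4.748, 6.557 and 4.689 CPM in MA9. In the other groups Cftr held 20 counts in BN1, 23 in ME and 1 in WT. C2cd4a, a nuclear C2 domain protein, was at 8.969, 10.67 and 13 CPM in MA9 and at most 0.2305 CPM elsewhere. Of 27 other liver and intestine genes, chosen after levels had been seen, 17 had no count in MA9 and 2 reached 3 CPM. Among the latter was Mttp, a lipid transfer protein of lipoprotein assembly, at 12.51 ± 1.106 against 1.384 ± 0.3973 in ME (SD, n = 3 each).

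Muscle and tendon genes ranged in MA9 from 3.094 CPM for Myog to 11.01 CPM for Speg. Des encodes desmin, the intermediate filament of muscle, and was at 4.01, 4.251 and 4.893 CPM in MA9, 0 in every WT library, 0.2927, 0.2279 and 0.1554 in BN1 and 0.346, 0.2305 and 0.4373 in ME. Speg, a kinase of striated muscle that lies beside Des, was at 12.35, 8.095 and 12.59 CPM in MA9 and 0 to 0.2927 CPM elsewhere. Myog, the myogenic factor myogenin, was at 3.166, 2.397 and 3.72 CPM in MA9 and had 3 counts in WT and none in BN1 or ME. Mkx, a homeobox factor of tendon, was at 6.595, 4.387 and 5.198 CPM in MA9 with 2 counts in WT, none in BN1 and 1 in ME. Of 28 other muscle genes, chosen after levels had been seen, 3 reached 3 CPM in MA9 (Mef2c, Tnnt1 and Mylpf) and 11 had no count there. The 28 summed to 184.7 to 196 CPM in MA9, 101 to 112.5 in WT, 77.25 to 77.89 in BN1 and 92.06 to 101.7 in ME. Mef2c, a transcription factor also used in blood, was at 94.25 ± 6.925 CPM in MA9 (SD, n = 3), 78.78 in WT, 26.89 in BN1 and 15.6 in ME. Tnnt1, the slow troponin T, was at 86.47 ± 1.749 in MA9 and 74.73 ± 3.888 in ME (SD, n = 3 each), 45.62 in BN1 and 6.64 in WT. Mef2c and Tnnt1 made up most of the MA9 sum, and 23 of the 28 genes were under 1 CPM there.

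Matrix and membrane genes included the highest member. Col6a3, the α3 chain of type VI collagen, was at 91.06, 80.77 and 93.52 CPM in MA9, 0, 0.1043 and 0.1023 in WT, 0.04181, 0.1367 and 0 in BN1 and 6.92, 8.205 and 4.975 in ME. ME was clear of WT and BN1, which overlapped. Col19a1, a minor fibril-associated collagen, was at 7.123, 7.598 and 8.817 CPM in MA9, Susd5, a sushi domain protein, at 5.329, 7.869 and 6.523, and Pla2r1, the phospholipase A2 receptor, at 6.648, 6.196 and 5.555. Susd5 held 48 counts in ME, 1 in BN1 and none in WT, while Pla2r1 held 4 counts in WT and none in BN1 or ME.

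Members with signalling roles ranged from 7.905 CPM for Nog to 30.89 CPM for Ppp1r14c in MA9. Ppp1r14c encodes an inhibitor of protein phosphatase 1 and was at 31.97, 30.57 and 30.12 CPM in MA9, with 0 counts in all 9 other libraries. Against a floor of 3 counts over a group, MA9 was at least 619-fold higher than WT, 737-fold higher than BN1 and 620-fold higher than ME, bounds that cover counting error only. Nog, the BMP antagonist noggin, was at 7.809, 6.784 and 9.123 CPM in MA9, with 1 count in WT, none in BN1 and 8 in ME. Rnf165, a ubiquitin ligase linked to BMP signalling, was at 12.13, 10.08 and 9.581 CPM in MA9, 0.7108, 0.638 and 0.5441 in BN1, 0.04666, 0.1565 and 0.05113 in WT and 0.09886, 0 and 0.05467 in ME, so BN1 was again above both. Dact3, a Dishevelled-binding antagonist of Wnt signalling, was at 12.82, 9.633 and 13.35 CPM in MA9, 0.6065, 0.3652 and 0.5624 in WT, 0.7944, 1.048 and 1.632 in BN1 and 1.483, 1.521 and 1.148 in ME. Gprasp2, which sorts G protein-coupled receptors, was at 26.96, 28.81 and 22.32 CPM in MA9 and at 0.7932, 0.626 and 1.125 in WT. BN1 followed at 0.1672, 0.1823 and 0.4663 CPM and ME at 0.09886, 0.1383 and 0.05467, the 4 groups not overlapping.

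Chromatin, RNA and germ line genes closed the coding members. H2afy2, the histone variant macroH2A2, was at 25.69, 25.46 and 25.63 CPM in MA9. Its coefficient of variation of 0.4742% was the lowest of all members. Counting alone gives 4.395% at this level, so that closeness is not read as a property of the gene. In the other groups H2afy2 was at 0.4149 to 1.166 CPM, WT overlapping both BN1 and ME. Tex14, a protein of the bridges between male germ cells, was at 24.06, 28.08 and 25.53 CPM in MA9, 1.296, 0.638 and 0.9327 in BN1, 0.1866, 0.5216 and 0.409 in WT and 0.2472, 0.3227 and 0.4373 in ME. BN1 lay above WT and ME, which overlapped. Adarb2, an RNA-editing enzyme relative found in brain, had 253 counts in MA9 and none in ME. Gcnt4, a glycosyltransferase of mucin-type sugars, was at 14.51, 15.69 and 12.44 CPM in MA9 and 0 in every BN1 library. Slc24a5, a sodium-calcium exchanger of pigment cells, was at 4.588 ± 0.3757 CPM in MA9 (SD, n = 3). Mtcl1, a microtubule-binding protein, was at 10.69 ± 0.6294 CPM, and Tmem215, a membrane protein, at 6.61 ± 0.9554 CPM (SD, n = 3). The remaining members, among them the 6 noncoding RNAs, are 1700080G11Rik, 2510009E07Rik, 4930500A05Rik, Gm11415, Gm36634, Gm128, Gm15283 and D630033O11Rik, with MA9 means from 3.103 to 24.19 CPM. The noncoding 1700080G11Rik was at 24.74, 24.01 and 23.8 CPM in MA9, 0.09331, 0.05216 and 0.1534 in WT, 0.1254, 0.319 and 0.2332 in BN1 and 0.9886, 0.9219 and 0.984 in ME, ME being clear of WT and BN1. The coding 2510009E07Rik was at 16.78, 16.01 and 16.1 CPM in MA9, 1.213, 1.617 and 0.9715 in WT, 0.7944, 1.413 and 1.049 in BN1 and 0.09886, 0.2305 and 0.2187 in ME, ME being the lowest. D630033O11Rik had 188 counts in MA9, 11 in WT and none in BN1 or ME.

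The median coefficient of variation over the 3 MA9 libraries was 9.371%, running from 0.4742 to 25.85%, while counting alone gives a median of 7.931%. The 8102 tested genes in the same range of levels had a median of 6.12%. Those genes were not matched to the members by level within that range, so the medians cannot be compared. The highest MA9 library was replicate 1 for 12 members, replicate 2 for 12 and replicate 3 for 15.

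Members near the threshold on its inside included Susd5, Dact3 and Gm128, at 8.325, 8.623 and 9.139 times the highest other group. Just outside were Ccdc170, Matk, Rgs5, 4930444F02Rik and Ddx4 at 7.924, 7.758, 7.426, 7.144 and 6.792 times. Matk, a tyrosine kinase, stands out among these by its level, 139.6 CPM in MA9 and 18 CPM in ME.

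**Figure D2:**
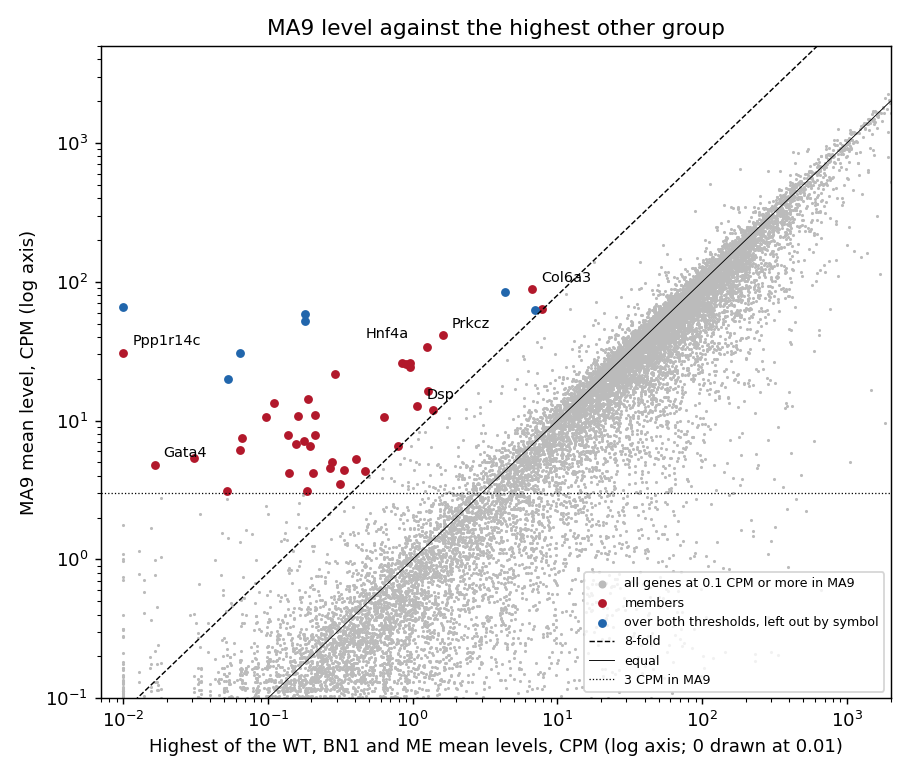
Mean level in MA9 (vertical) against the highest mean of the 3 other groups (horizontal), both in CPM on log axes, for members, genes left out by symbol and all genes at 0.1 CPM or more in MA9, with 0 drawn at 0.01 CPM. Members lie above the 8-fold line and the line at 3 CPM by the choice of the set, with Ppp1r14c at the left edge, without counts elsewhere.

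The members were next compared among the groups that did not choose them upward, WT, BN1 and ME, where the definition only caps each mean at an eighth of MA9. The tests were edgeR quasi-likelihood tests in a single fit to all genes and libraries, with Benjamini-Hochberg adjustment over 15334 genes, and log2 fold changes carry approximate standard errors. In BN1 against WT, 16 of the 39 members were called, 6 higher and 10 lower, where 79.2% of all genes tested were called, 38.4% higher and 40.8% lower. In ME against WT, 16 members were called, 8 higher and 8 lower, against 79.2% of all genes, 39.0% higher and 40.2% lower. In BN1 against ME, 13 members were called, 5 higher and 8 lower, against 64.7% of all genes, 31.8% higher and 33.0% lower. All 39 members passed the filter on low counts, as their level in MA9 let them, and most hold few counts in these groups. Some hold more, such as Col6a3 with 409 counts in ME and Prkcz with 97 in WT. Nothing is read from the members' share beside the background, and the calls of single members with few counts below carry the same limit. Without ME replicate 3, 14 members were called in ME against WT and 14 in BN1 against ME. Over all 15820 genes tested in that setting, 12155 and 9670 were called. The median log2 fold changes of members were 0, -0.10 and -0.04, beside -0.01 in each comparison over all genes. A total of 23 members were called in at least 1 of the 3 comparisons and 16 in none, the latter including Ppp1r14c, Gata4, C2cd4a, Alpi, H2afy2 and Speg. Over all genes tested the share called in at least 1 was not counted. It cannot be below the 79.2% called in BN1 against WT, and nothing is read from the member counts. These comparisons share libraries.

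Matrix genes gave the largest differences for ME. Col6a3 was higher in ME than in WT by a log2 fold change of 6.44 ± 0.38 (adjusted p = 9.2e-14 by edgeR's quasi-likelihood test) and higher than in BN1, with BN1 against ME at -6.78 ± 0.36 (adjusted p = 3.4e-14 by edgeR). Susd5 held 48 counts in ME and none in WT, at least 15.99-fold higher (adjusted p = 3.5e-07 by edgeR). Against BN1, with a single count there, ME was higher by a ratio of 57.07 with a counting interval of 9.765 to 2300. Des held 20 counts in ME and 16 in BN1 against none in WT, at least 6.661-fold and at least 4.482-fold. It was at 0.4373 CPM or less in every WT, BN1 and ME library and passed the filter through MA9. These Des counts are given as a description. The RNA 1700080G11Rik was higher in ME than in WT by 3.09 ± 0.43 on the log2 scale, and BN1 against ME was -2.09 ± 0.34. Without ME replicate 3 the log2 fold changes against WT were 6.59 for Col6a3 and 3.06 for 1700080G11Rik, and the calls held.

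Prkcz and Gprasp2 were lower than WT in both BN1 and ME. Prkcz fell by 1.79 ± 0.26 on the log2 scale in BN1 and by 1.75 ± 0.27 in ME. Dsp fell by 3.51 ± 0.44 in BN1 (adjusted p = 3.5e-08 by edgeR), and BN1 stood below ME by a log2 fold change of -2.84 ± 0.48. In ME its difference from WT was -0.68 ± 0.30 (adjusted p = 0.042 by edgeR), a call that was lost in 14 of 19 alternatives. Gprasp2 fell by 1.71 ± 0.39 in BN1 and by 3.13 ± 0.51 in ME.

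Several members moved apart between the leukemias. Hnf4a was lower in BN1 than in WT (adjusted p = 2.7e-06 by edgeR), 3 counts against 42, a ratio of 16.66 with a counting interval of 5.324 to 84.02, and was higher in ME than in WT by 0.74 ± 0.32 (adjusted p = 0.040 by edgeR), a call lost with limma-voom and without ME replicate 1, ME replicate 3 or WT replicate 2. Rnf165 was higher in BN1 than in WT by 2.71 ± 0.55 and than in ME by 3.50 ± 0.60. Tex14 was higher in BN1 than in WT by 1.26 ± 0.36 and than in ME by 1.51 ± 0.36. The gene 2510009E07Rik fell by 2.87 ± 0.39 in ME against WT and was higher in BN1 than in ME by 2.51 ± 0.40. Dact3 instead moved the same way in both, higher than WT by 1.05 ± 0.34 in BN1 and by 1.31 ± 0.34 in ME. The call in BN1 was lost without BN1 replicate 3, at an adjusted p of 0.081 by edgeR. For Dact3, BN1 against ME was not called (-0.26 ± 0.28, adjusted p = 0.42 by edgeR).

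**Figure D3:**
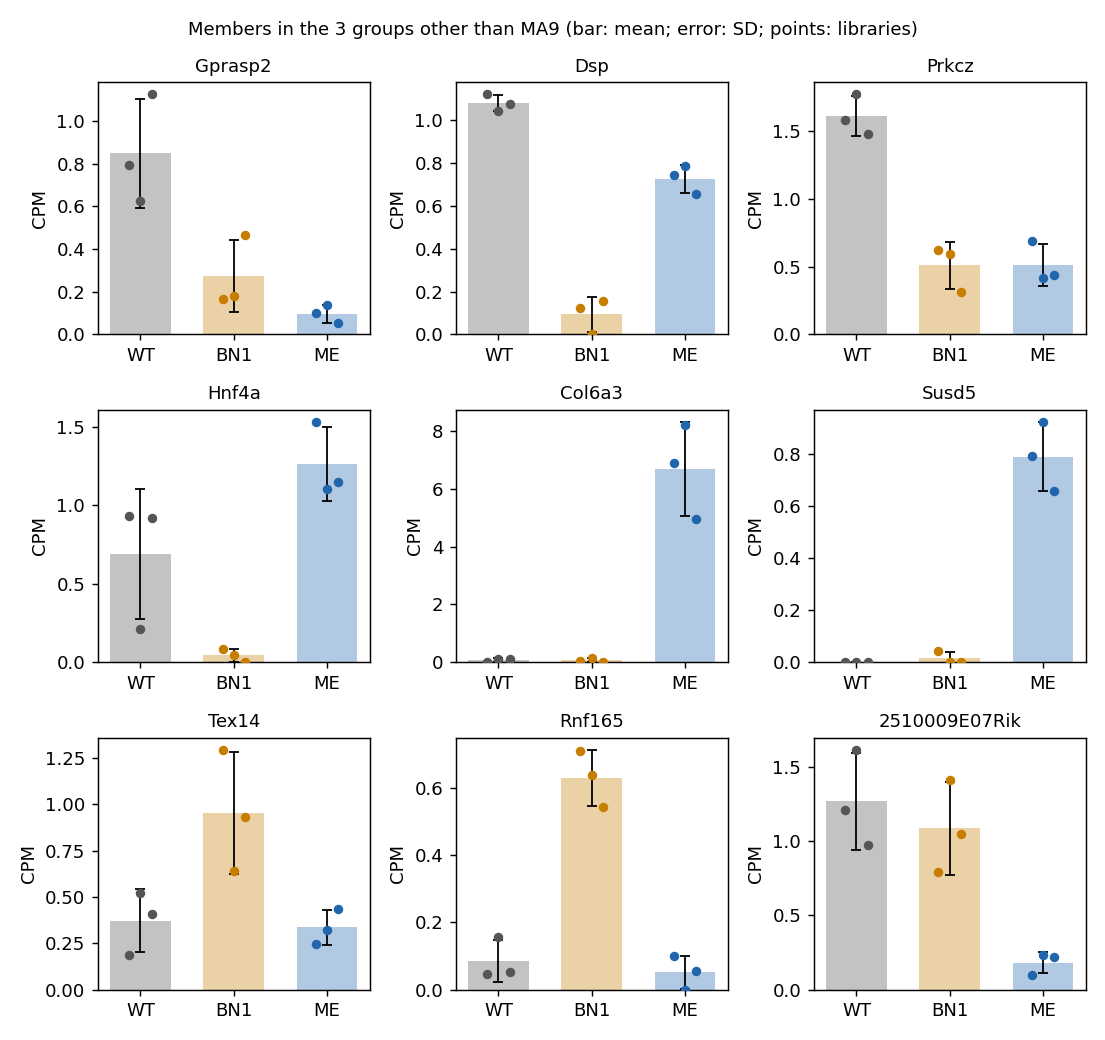
Levels in CPM of 9 members in WT, BN1 and ME, with bars for the mean, error bars for the SD and points for the 3 libraries of each group. Col6a3 stands high in ME, Prkcz and Gprasp2 in WT, and Hnf4a in ME and WT over BN1.

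Context genes that were not members were counted in MA9 against ME, where 20.2% of all genes tested were higher and 20.4% lower, 3095 and 3130 genes. Scaling by library totals alone made that 3888 and 2509. The lists and their members were assembled with earlier results of these data known. Of 29 MLL fusion targets outside the Hox clusters, none a member, 15 were higher and 10 lower, with a median log2 fold change of 0.27. Those counts include Eya1, Six4 and Ikzf2, which the definition leaves out by name. Of 40 homeobox genes outside Hox, 16 were higher and 10 lower, and the list holds the member Mkx. Satb1, a homeobox chromatin organiser of lymphoid cells, was at 16.54 ± 0.652 CPM in MA9 and 0.3498 ± 0.08625 in ME (SD, n = 3), with a log2 fold change of 5.49 ± 0.19, and at 107.5 CPM in WT, above MA9. Hopx, a homeodomain-only protein, fell from 87.55 ± 8.502 CPM in ME to 44.47 ± 1.746 CPM in MA9 (SD, n = 3; adjusted p = 7.6e-14 by edgeR). Of 36 TGF-beta and BMP genes, the pathway of Nog, 5 were higher and 12 lower. Bmp8a, a ligand, rose by 2.69 ± 0.23 and Id2, a target, fell by 1.41 ± 0.09. Of 29 other Wnt pathway genes, the pathway that Dact3 acts on, 6 were higher and 9 lower. The receptor Lgr4 fell by 1.53 ± 0.13, while Fzd7 rose by 0.66 ± 0.12. Of 41 collagens, laminins and matrix genes, the list of Col6a3 and Col19a1, 10 were higher and 13 lower. Col6a6 rose by 2.71 ± 0.20, while Thbs1 fell by 6.32 ± 0.19 and Vcan by 3.01 ± 0.08. The level of Col6a6 was higher in BN1, at 11.42 CPM, than in MA9, at 6.597 CPM. Among 26 germ line genes, the list of Tex14, 6 were higher and 6 lower. Ddx4, an RNA helicase of germ cells, rose by 3.54 ± 0.25 and Tdrkh by 4.60 ± 0.37. Tdrkh was higher in BN1, at 17.37 CPM, than in MA9, at 6.013 CPM. The largest change on that list was a fall, that of Dmrtb1 by 5.76 ± 0.07, from 173.1 CPM in ME to 3.322 CPM in MA9. Among 218 solute carriers, the list of Slc24a5, 53 were higher and 49 lower, with Slc15a2, a peptide transporter, higher by 9.22 ± 0.32 and the nucleoside transporter Slc28a2 lower by a log2 fold change of -3.52 ± 0.05. Slc15a2 was nearly absent in ME, at 0.01648 CPM, and at 13.98 CPM in MA9, 22.19 in WT and 10.7 in BN1. Slc28a2 was at 36.74 CPM in MA9 and 405 in ME.

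In GRCm38, the assembly of mm10, Col6a3 spans chr1:90766860-90844001, Prkcz chr4:155260118-155361428, Hnf4a chr2:163506811-163572907 and Ppp1r14c chr10:3365974-3464978. Members were spread over many chromosomes, with 7 of 39 on chromosome 1 (17.95%, against 6.087% of tested genes with a position). Des and Speg lie 6718 bases apart there, Alpi and Col6a3 3665254 bases apart, and Tex14 and Nog 1744815 bases apart on chromosome 11. The nearest tested protein-coding gene on each side within 500000 bases, and any that overlaps, gave 76 neighbours that were not members. In MA9 against ME, 26 neighbours were higher and 18 lower (57.89%, where 40.6% of all genes were called), and the median log2 fold change was 0.06. A log2 fold change of 3 or more was seen in 9.211% of neighbours and 2.68% of all genes tested. Those neighbours were 7 genes, mostly at low levels. C2cd4b, Loxhd1, Neil2, Fam135a and Gm2137 were at 0.597 to 1.524 CPM in MA9, and the others were Bhlhb9 and Oaf. Bhlhb9 and Gm2137 overlap their member, so little is read from this share. Against WT, 38 were higher and 30 lower (89.47%, where 80.1% of genes were called, 39.3% higher and 40.8% lower), and against BN1, 28 were higher and 29 lower (75%, where 67.7% were called, 34.9% higher and 32.8% lower). Bhlhb9, which overlaps Gprasp2 on chromosome X, was at 17.83 ± 1.559 CPM in MA9, 0.01648 ± 0.02854 in ME, 0 in BN1 and 8.101 in WT. Oaf, beside D630033O11Rik, was at 8.414 ± 0.32 CPM in MA9, 9.2 in WT and 0.166 ± 0.1134 in ME. Mlph, beside Col6a3, was at 15.84 ± 0.4547 CPM in MA9, 3.17 ± 0.9389 in ME, 4.067 in BN1 and 0.04964 in WT. Nfkbia, an inhibitor of NF-kappa B beside Gm36634, was lower in MA9 by 1.49 ± 0.07. In 6 members another tested protein-coding gene overlaps (among them Gprasp2, H2afy2, 4930500A05Rik, Slc24a5 and Gm15283), and because it is not known here whether counting used the strand, their levels are uncertain.

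**Figure D4:**
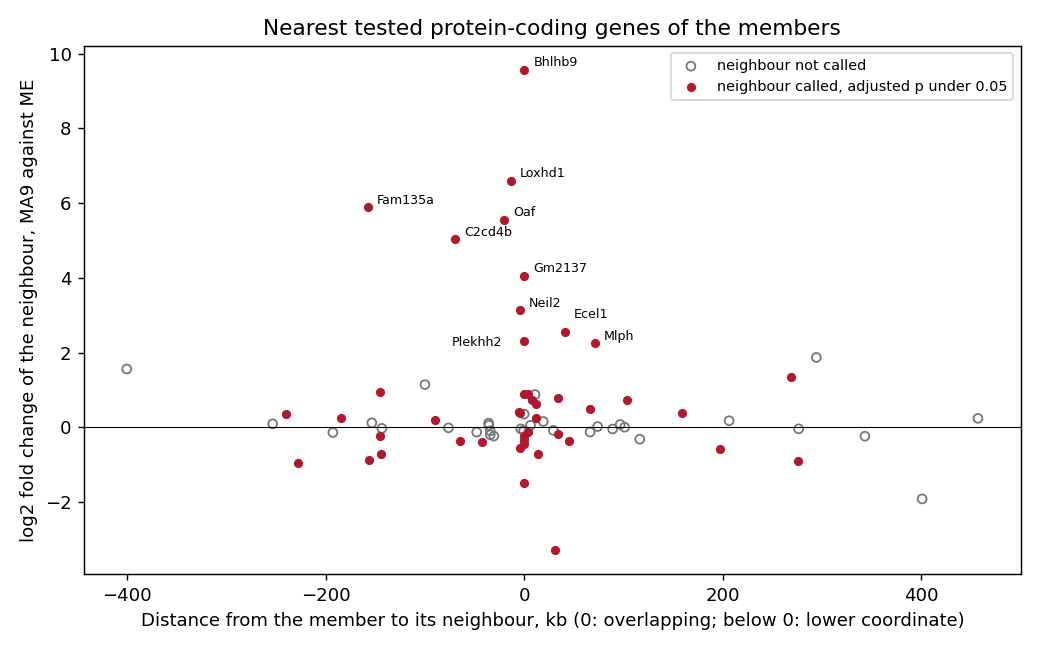
Log2 fold change in MA9 against ME of the 76 non-member neighbours, by distance from the member in kilobases (0 for overlapping genes), with filled points for genes called at an adjusted p under 0.05. The labelled neighbours, such as Bhlhb9 at 9.57 and Oaf at 5.56, lie well above 0, while most others lie near it.

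Promoters were found for 29 of the 39 members in the RefSeq table, using the first listed window where 8 members had more than one. An observed over expected CpG ratio of at least 0.6 with GC of at least 50% was found in 11 of 29 member windows (37.9%), against 62.1% of the windows of 11652 tested genes and 34.1% of all 27018. With a ratio of at least 0.75 the member share was 17.2%, against 45.5% of tested genes. On either strand, TGACAG was found in 8 of 29 windows (27.6%), beside 17.2% of tested genes and 19.3% of all. CCAAT was in 34.5% of member windows and 38.7% of tested genes, TATAAA in 13.8% and 7.86%, and CACGTG in 10.3% and 9.85%. GAGGAAGT was in 3.45% and 3.38%, and TGACTCA in 3.45% and 3.83%. No member window held TGATTTAT (Hox with Meis or Pbx), CCGGAAGT (Ets factors) or TTGCGCAA (C/EBP), beside 0.463%, 7.65% and 0.275% of tested genes.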

How the data were processed

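The read counts per gene that the authors deposited for 12 libraries were taken unchanged. The submitters' processing notes name HISAT2, featureCounts, DESeq2 and the build mm10. Tool versions, annotation and strand setting: not given in the sources used here. Stranded libraries of polyadenylated RNA were made, per the labels. CPM are counts divided by the column sum. The members and the gene lists were chosen with earlier results of these data known. All 39 members passed the filter on low counts, as the level in MA9 let them.

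One quasi-likelihood model was fitted to all libraries in edgeR 4.0.16 (R 4.3.3) with TMM scaling, filterByExpr (15334 genes kept) and a Benjamini-Hochberg threshold of 0.05; the fit was tested on simulated data. Members were tested only between WT, BN1 and ME. Named were members by level, ratio, list and largest called change, the genes nearest the 8-fold threshold and up to 3 called list genes per direction. Neighbours named were chosen after their values were seen. Positions and promoters came from RefSeq, GRCm38.p6, the assembly of mm10. Alternatives were DESeq2 1.42.0, limma-voom (limma 3.58.1), other scaling and filters, each library left out, a replicate block and other thresholds of the definition. Folds against 0 counts use a floor of 3 counts over the group. Some genes are not reported here.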

Additional observations from a re-analysis of the deposited data

Results flagged for a closer look

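Hnf4a moved in opposite directions against WT in the 2 leukemias compared. It was lower in BN1, where the group held 3 counts, and higher in ME, with 76 counts against 42 in WT, and the test of the difference itself, BN1 against ME in edgeR, gave a log2 fold change of -4.74 ± 0.56 (adjusted p = 2.7e-08 by edgeR). All 3 BN1 libraries lay below all WT libraries, and all 3 ME libraries above them. The call of ME against WT was lost with limma-voom and without ME replicate 1, ME replicate 3 or WT replicate 2, whereas the BN1 against ME call held in all 19 alternatives.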

How the results depend on the processing

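The set itself depended most on its thresholds. It held 74 genes at 4-fold, 67 at 1 CPM and 19 at 10 CPM in MA9, against 39 as defined, and 37 to 40 when a library was left out. TMM-scaled library sizes gave 36 genes, D630033O11Rik and Myog being among those lost, and asking every MA9 library to be 8 times the highest other library gave 32. The counts of genes called in the 6 comparisons, and of members called, stayed within 1.5 times their value in every alternative: members called ran from 15 to 19 in BN1 against WT, 12 to 17 in ME against WT and 11 to 15 in BN1 against ME. Over all genes, 11387 to 13684, 11386 to 13478 and 9356 to 10372 were called in these 3 comparisons, of 13993 to 25117 tested. In all 19 alternatives 13 of 16, 11 of 16 and 10 of 13 member calls held. The matching share over all genes was not counted. Most members hold few counts outside MA9, and MA9 let them pass the filter, so nothing is read from how many calls held. The samples share only replicate numbers, whose deviations correlated at -0.0806 to 0.0625. With a replicate block 12042, 12014 and 9743 genes were called in BN1 against WT, ME against WT and BN1 against ME, 12162, 10195 and 5967 in MA9 against WT, BN1 and ME, and 17, 14 and 13 members. Scaling by library totals alone changed the split of MA9 against ME from 3095 higher and 3130 lower to 3888 and 2509, and moved the median of all genes to 0.16 in MA9 against WT. Members with few counts limit what could be detected outside MA9.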
